A study of Mus musculus with 7 samples.

Results

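The collagen genes were examined in H3K27-Ac peak lists of 3 tumour cell clones from mouse skin. Collagen genes were taken as all protein-coding genes of the GENCODE annotation of GRCm38 whose symbol has the form Col#a#. There are 44 of them among 21938 protein-coding genes on chromosomes 1 to 19, X and Y. By the structure that their chains form they fall into 11 fibrillar genes, 6 basement membrane genes, 9 FACIT genes (collagens that attach to fibrils), 4 transmembrane genes, 6 beaded filament genes (type VI), 3 short-chain network genes (types VIII and X), 2 multiplexin genes (types XV and XVIII), 1 anchoring fibril gene (type VII) and 2 others. No measured value enters this rule, but the members and classes were chosen with earlier results of these data known.

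Each clone came from a separate skin tumour, diagnosed as trichoblastic carcinoma, of a Cdkn2ab-/- mouse of an FVB/129P2 backcross. The deleted locus encodes the cell cycle inhibitors p15Ink4b, p16Ink4a and p19Arf, and its conditional part was removed in the germline by Act-Cre. The clones were picked from soft agar and then kept adherent, so each is 1 line selected for growth without attachment, and all 3 carry the same deletion. There were 4 H3K27-Ac libraries, of which both libraries of clone 3 were pooled by the authors, and 3 IgG libraries served as background, 1 of clone 1 and 2 of clone 3. The control used for clone 2 is not given in the sources used here. With 1 condition and no second group there is nothing to test between groups, and values are given per clone beside the same quantity over all protein-coding genes.

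Collagens are secreted or membrane-bound triple helices that make up much of the extracellular matrix. Types I, III and V build the fibrils of the dermis, and type IV builds the sheet of the basement membrane. Types VII and XVII anchor the epidermis to the dermis. In skin the fibrillar chains come mainly from fibroblasts, whereas epidermal cells make types VII and XVII and share in making type IV. H3K27-Ac, acetylation of lysine 27 of histone H3, is found at active promoters and enhancers, and in ChIP-seq its position is read from sequenced fragments pulled down with an antibody to it. A promoter peak here is a peak within 1 kb of any annotated start of the gene, and a body peak is one that overlaps the gene.

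The lists hold 29182, 49587 and 29277 peaks for clones 1, 2 and 3. Fold enrichment at the summit and its p together returned ChIP reads, whole within 0.01 of a read, and the local background for 100% of the peaks, of which 0.0308% in clone 1 had more than 1 solution. The median peak rested on 37, 34 and 53 reads and the weakest on 13, 12 and 25, so that weaker sites could not be listed. Control background was 1.38, 1.37 and 1.41 times that of the other autosomes at peaks on chromosome 8 and 1.34, 1.33 and 1.39 times at peaks on chromosome 15. These chromosomes hold Col4a1, Col4a2, Col2a1, Col14a1 and Col22a1. Col4a1 and Col4a2 shared 2 promoter peaks in clone 1, with a local background of 0.990 at the stronger and 2.00 at the other. As a ratio to the other autosomes, their strongest shared peak stood at 0.835 for clone 1 and 0.849 for clone 2. For the strongest promoter peak of Col5a1, on chromosome 2, this ratio was 0.844 and 0.790. Whether the excess on chromosome 8 reaches the promoter of Col4a1 and Col4a2 was not tested. Among marker genes of cell types, promoter peaks in all 3 clones were found at 1 of 11 keratinocyte genes (9.09%) and at 7 of 13 genes of fibroblasts and mesenchyme (53.8%), where the share of all protein-coding genes is 46.5%. Fibroblast genes without one in any clone are Dpt, Dcn, Lum and Thy1. No endothelial or leukocyte marker had a promoter peak in all 3 clones, of 6 in each list. Keratinocyte genes without a promoter peak in any clone include Krt5, Trp63, Cdh1 and Dsp, and Krt14 had one in clone 1 only. The part of cell identity in the results was not tested.

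Fewer collagen genes than genes at large carried a promoter peak. In clone 1 they were 14 of 44 (31.8%), against 49.8% of all protein-coding genes. In clone 2 they were 19 (43.2%), against 56.9%, and in clone 3 they were 10 (22.7%), against 48.1%. The mean over clones was 14.3 ± 4.51 genes (SD, n = 3). In all 3 clones 8 collagen genes (18.2%) had a promoter peak, against 46.5% of all genes. At a single clone stood 7 collagen genes (15.9%), against 6.53% of all genes, and 23 (52.3%) had none in any clone, against 42.6%. Of the 7 genes 6 were marked in clone 2, whose list is the longest, and the count is 4 when all lists are cut to the same length. Without clone 3 the genes shared by the remaining clones are 13, and without clone 1 those found in just 1 of the remaining clones are also 13. With peaks restricted to a −log10 q of at least 5, the 8 genes become 3, namely Col5a1, Col16a1 and Col4a5. That cut leaves 22375, 35219 and 18610 peaks in clones 1, 2 and 3. The share of all genes under it was not computed, so this loss cannot be set against that of genes at large.

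Where a collagen promoter did carry a peak, the peak was weak for a promoter. Fold enrichment is comparable only within a list, so each was ranked among all promoters with a peak in the same clone. The median collagen promoter stood at percentile 16.5, 16.2 and 11.9 in clones 1, 2 and 3. The median fold enrichment was 9.04, 14.6 and 4.77, whereas that of all promoters with a peak was 18.8, 39.3 and 8.3. A peak covered a start base itself at 57.1%, 78.9% and 50% of these collagen genes and at 91.0%, 95.2% and 85.3% of all genes with a promoter peak. Collagen genes are also long, with a median of 114 kb against 17.4 kb for all protein-coding genes.

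**Figure D1:**
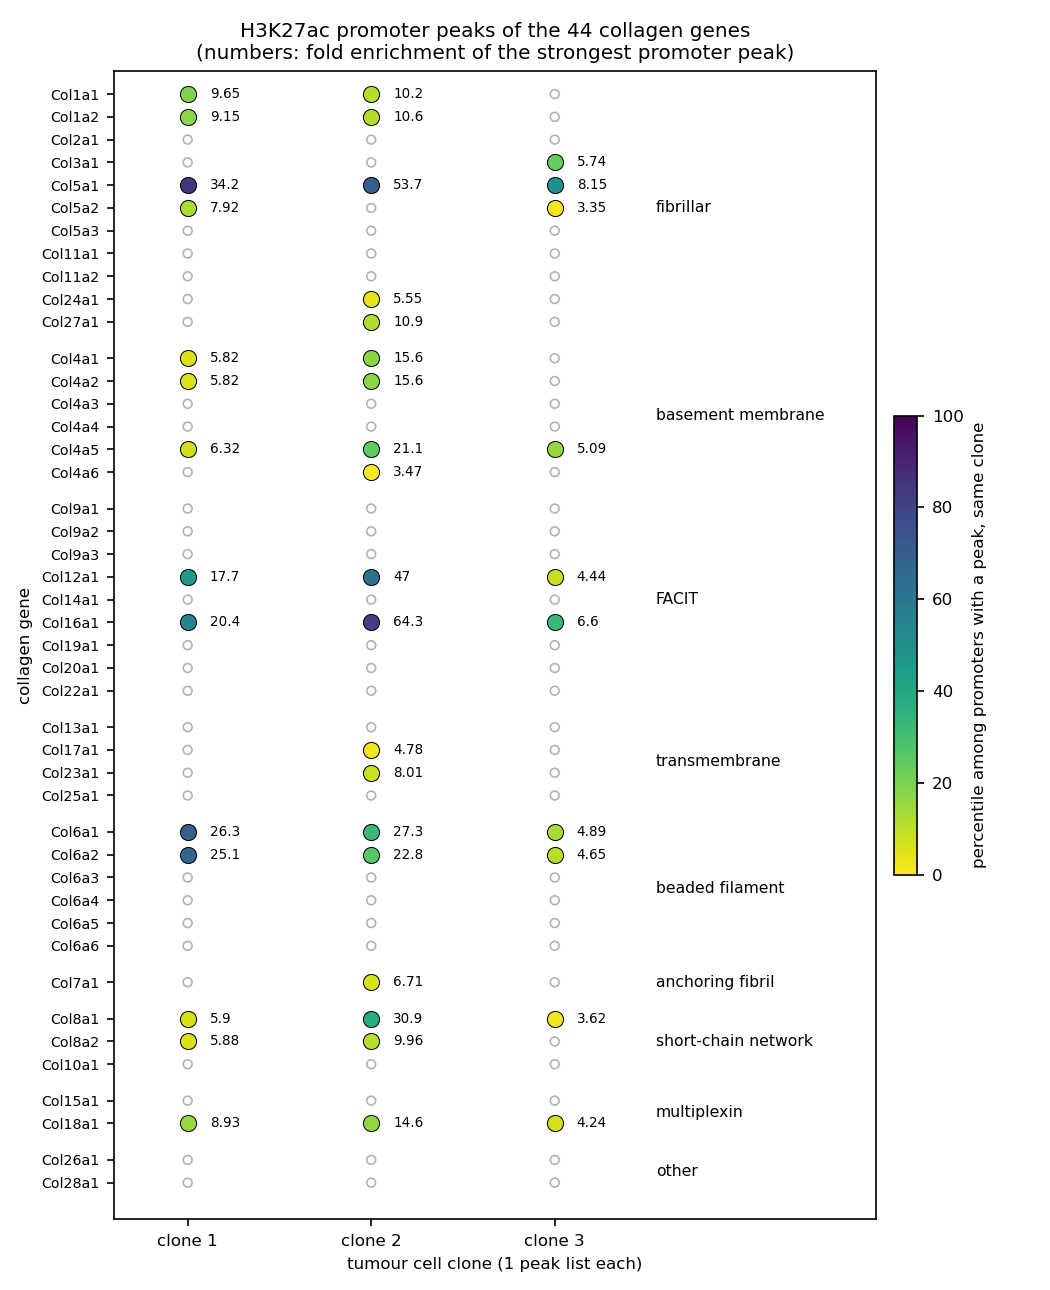
Promoter peaks of the 44 collagen genes (rows, by class) in the 3 clones (columns). Filled circles mark a promoter peak with its fold enrichment beside it and are coloured by its percentile among all promoters with a peak in that clone, and open circles mark no promoter peak. Col5a1, Col6a1, Col6a2, Col4a5, Col8a1, Col12a1, Col16a1 and Col18a1 are filled in all 3 columns.

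By class, promoter peaks in every clone were found at 1 of 11 fibrillar genes, whereas 3 had one in 2 clones, 3 in a single clone and 4 in none. Of the 6 basement membrane genes 1 had a peak in all clones, 2 in 2 clones, 1 in a single clone and 2 in none. The 9 FACIT genes were divided, with 2 marked in every clone, Col12a1 and Col16a1, and 7 in none, Col9a1, Col9a2, Col9a3, Col14a1, Col19a1, Col20a1 and Col22a1. Of the 4 transmembrane genes, Col17a1 and Col23a1 had a promoter peak in clone 2 only, and Col13a1 and Col25a1 in no clone. In the beaded filament class, Col6a1 and Col6a2 had one in every clone and Col6a3, Col6a4, Col6a5 and Col6a6 in none. Among the short-chain genes Col8a1 had one in all clones, Col8a2 in 2 and Col10a1 in none. Of the multiplexins Col18a1 had one in all clones and Col15a1 in none. Col7a1 had one in clone 2 only, and Col26a1 and Col28a1 had none. These class counts are small. Without clone 3 the fibrillar and basement membrane counts each become 3, and without clone 2 the fibrillar count becomes 2. With a clone left out, a peak in the remaining clones is enough, so these counts cannot fall.

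**Figure D2:**
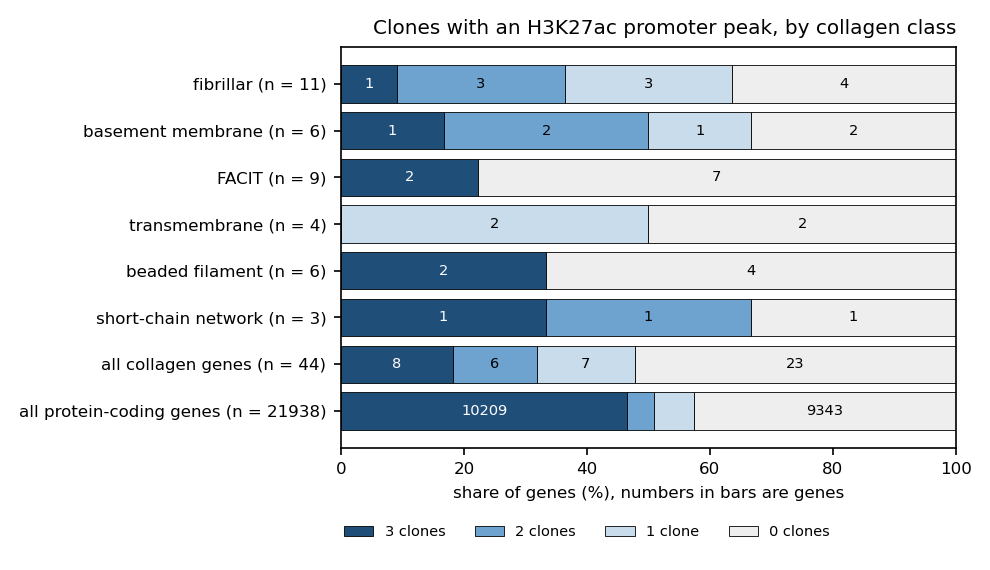
Share of genes (x axis, in %) with a promoter peak in 3, 2, 1 or 0 clones, for 6 collagen classes, all 44 collagen genes and all 21938 protein-coding genes. Numbers in the bars are genes. The bar for 3 clones is 18.2% for collagen genes and 46.5% for all genes.

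Col5a1 encodes a chain of type V collagen, which sets the diameter of type I fibrils. It lies on the plus strand at chr2:27886425-28039514 and was the collagen gene with the highest promoter percentile on average and in clones 1 and 3, whereas Col16a1 was higher in clone 2. The fold enrichment was 34.2, 53.7 and 8.15 in the 3 clones in order and placed it at percentile 84.6, 70.3 and 48.9 among promoters with a peak (mean 68 ± 18, SD, n = 3). Its peaks rested on 159, 242 and 72 ChIP reads, with exact Poisson 95% intervals of 135 to 186, 212 to 274 and 56.3 to 90.7, which cover counting error only. The summits lie 234, 211 and 236 bp past the start, thus within 25 bp of one another. Inside the gene there were 8, 37 and 6 body peaks, so that peaks covered 4.88%, 16.3% and 2.94% of its length. Col5a1 and Col16a1 were the only collagen genes with a promoter peak in all 3 clones under each distance, start, threshold and number of peaks tried.

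Col16a1 encodes a fibril-associated chain. It lies on the plus strand at chr4:130047840-130099283 and has 13 annotated starts. Its strongest promoter peak had a fold enrichment of 20.4, 64.3 and 6.6, at percentile 55.0, 81.9 and 32.7, and rested on 94, 290 and 61 reads. Body peaks numbered 6, 20 and 3 and covered 12.1%, 30.6% and 4.98% of the gene. In clone 2 the peaks around it, joined over gaps of up to 12.5 kb, form a domain of 30 peaks with 25231 bases, which ranked 106 among the domains of that list, where those in clones 1 and 3 ranked 531 and 909. The domain around Col5a1 ranked 149, 158 and 1414 in clones 1, 2 and 3. For both genes clone 3 was the lowest by percentile.

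The other members marked in every clone also had their lowest percentile in clone 3, except Col4a5, whose lowest was in clone 1. Col12a1, a FACIT chain of dense connective tissue, had a fold enrichment of 17.7, 47.0 and 4.44 at percentile 46.2, 61.5 and 8.44. Col6a1 had 26.3, 27.3 and 4.89 at percentile 70.2, 32.8 and 13.3, and its neighbour Col6a2 had 25.1, 22.8 and 4.65 at percentile 67.5, 26.5 and 10.6. These encode 2 of the 3 main chains of type VI collagen, which forms beaded filaments around cells. The gene of the third main chain, Col6a3, had no promoter peak in any clone and 1 body peak in each. Col8a1, of the network of type VIII collagen, had 5.90, 30.9 and 3.62 at percentile 5.92, 37.8 and 2.15, so its rank in clone 2 stands apart from the other clones. Col4a5 had 6.32, 21.1 and 5.09 at percentile 7.35, 24.3 and 15.3.

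Col18a1 encodes type XVIII collagen, a heparan sulphate proteoglycan of basement membranes whose C-terminal fragment is endostatin. It had promoter peaks of 8.93, 14.6 and 4.24-fold at percentile 16, 16.2 and 6.51, none of them at its outermost start. Starts 52.6 and 52.8 kb into the gene had a peak in clones 1 and 2, with 33 and 57 reads, and none in clone 3. A start 77.1 kb into the gene had a peak in every clone, with 41, 66 and 38 reads. Counted by the outermost start alone Col18a1 has no promoter peak, and the number of collagen genes marked in all clones becomes 7.

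Sequences before the start are shown for the strongest shared promoters, Col5a1 and Col16a1, for the weak shared promoter of Col8a1, and for Col3a1, which had a promoter peak in clone 3 only. They are the 120 bases before the RefSeq start on GRCm38.p6, read 5′ to 3′ on the gene's strand, from chr2:27886305-27886424 (plus), chr4:130047720-130047839 (plus), chr16:57754738-57754857 (minus) and chr1:45311418-45311537 (plus). These are reference bases and not those of the FVB/129P2 clones. Capitals mark GGGCGG (a GC box), CCAAT and TATAAA on either strand.
Col5a1: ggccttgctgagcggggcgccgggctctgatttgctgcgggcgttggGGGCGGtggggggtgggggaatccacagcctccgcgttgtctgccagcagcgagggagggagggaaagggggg
Col16a1: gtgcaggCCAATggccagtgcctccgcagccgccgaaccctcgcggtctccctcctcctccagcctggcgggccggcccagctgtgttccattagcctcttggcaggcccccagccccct
Col8a1: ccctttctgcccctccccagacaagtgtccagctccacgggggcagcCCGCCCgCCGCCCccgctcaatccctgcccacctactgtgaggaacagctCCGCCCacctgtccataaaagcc
Col3a1: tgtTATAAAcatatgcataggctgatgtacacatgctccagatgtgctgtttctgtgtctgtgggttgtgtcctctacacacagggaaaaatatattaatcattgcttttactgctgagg

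Of the 44 genes, 35 had an entry in the promoter table. Entries were not matched for Col1a1, Col2a1, Col4a3, Col5a2, Col9a3, Col12a1, Col14a1, Col22a1 and Col26a1. Within 250 bases before the start GGGCGG was present in 21 of 35 collagen promoters (60%), against 44.4% of 16522 promoters of protein-coding genes. CCAAT was present in 12 (34.3%), against 36.1%, and TATAAA in 5 (14.3%), against 11.9%. For a split by peaks, an entry counts by the peaks within 1 kb of its own start, so that Col8a2, Col17a1 and Col18a1, whose peaks lie at other starts, count as having none. GGGCGG was in 5 of the 6 collagen entries with such a peak in every clone (83.3%), against 65.3% of all entries of that kind. It was in 10 of the 20 with a peak in none (50%), against 20.5%. The ratio of observed to expected CpG over the whole entry had a median of 0.47 in collagen promoters and 0.60 in all promoters. It was 0.55 in collagen entries with a peak in all clones and 0.40 in those with none, where all entries with and without such peaks stood at 0.82 and 0.22. The Col3a1 promoter had no CpG in this stretch (ratio 0.00) and that of Col5a1 had a ratio of 0.81. A match to a motif is a description of these letters and not a binding site.

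The promoters of the type I genes were marked in clones 1 and 2 and not in clone 3. The list of clone 3 comes from pooled libraries, and its weakest peak rests on 25 reads, against 13 and 12 in clones 1 and 2. The part of this in the contrasts between clones given here and below was not tested. Col1a1, at chr11:94936224-94953042, encodes the main chain of type I collagen, the bulk of dermal fibrils. Its promoter peak had a fold enrichment of 9.65 in clone 1 (44 reads, exact Poisson 95% interval 32.0 to 59.1) and 10.2 in clone 2 (49 reads, 36.3 to 64.8). In clone 3 the nearest peak to its outermost start lay 8.17 kb away and no body peak was listed. Col1a2, its partner chain at chr6:4504814-4541544, had 9.15 in clone 1 (84 reads) and 10.6 in clone 2 (47 reads). In clone 3 it had no peak within 1 kb of a start, but a body peak of 38 reads with a fold enrichment of 3.18 had its summit 2.48 kb into the gene. A separate peak of clone 3 lay upstream, 1.33 kb from the outermost start. Within 2 kb Col1a2 therefore counts in all clones, whereas Col1a1 does not.

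The other dermal fibril chains followed another order. Col3a1, at chr1:45311538-45349706, had a promoter peak in clone 3 only, with a fold enrichment of 5.74, 44 reads and percentile 23.1. Clones 1 and 2 each had 1 body peak in this gene, of 16 and 23 reads, whose summits lay 2297 and 2780 bp past the start. Clone 3 had a body peak of 53 reads at 2302 bp, 5 bp from that of clone 1. Col5a2, its neighbour at a distance of 24.6 kb, had a promoter peak in clone 1 (7.92-fold, 29 reads) and in clone 3 (3.35-fold, 51 reads). In clone 2 no peak was listed within 189 kb of the Col5a2 start. Neither gene had a peak that covers a start base. So of the 4 fibrillar genes Col1a1, Col1a2, Col3a1 and Col5a2, clone 2 was marked at both type I genes alone, clone 3 at Col3a1 and Col5a2, and clone 1 at all but Col3a1. This order depends on the definition, since within 2 kb Col3a1 is marked in clone 1 as well and Col1a2 in clone 3, and at a −log10 q of at least 5 Col5a2 is marked in clone 1 only. Fibroblast genes that also differed between clones are Fbn1 and Pdgfra, both marked in clones 1 and 2. Their part in this was not tested.

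Among the minor fibrillar genes Col24a1 and Col27a1 were marked in clone 2 only. Col27a1, a chain of developing cartilage, had 10.9-fold (42 reads) at starts 1.41 and 1.43 kb past its outermost start. Its nearest peak to the outermost start lay at 96.3 kb in clone 1 and at 142 kb in clone 3. Col24a1 had 5.55-fold (26 reads) at 0.647 kb from its outermost start, and 14.6 and 14.1 kb separated that start from the nearest peak in clones 1 and 3. It has no promoter peak in any clone with lists of equal length or at the shorter distance tried, and within 2 kb it has one in clones 2 and 3. Col2a1, Col11a1, Col11a2 and Col5a3 had no promoter peak, and of these Col2a1, Col11a1 and Col11a2 are chains of cartilage.

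Type IV collagen genes lie in head-to-head pairs. Col4a1 and Col4a2, which encode the ubiquitous chains of basement membranes, start 21 bp apart on opposite strands of chromosome 8. They share their promoter peaks, with a fold enrichment of 5.82 (25 reads) in clone 1 and 15.6 (71 reads) in clone 2. In clone 3 the nearest peak lay 26.9 kb away. Col4a3 and Col4a4, chains of kidney and lung basement membranes, start 72 bp apart, and in each clone the nearest peak to them lay 138 kb away. Col4a5 and Col4a6 start 1309 bp apart on chromosome X and shared no promoter peak within 1 kb. Col4a5 was marked in all clones, whereas Col4a6 had a peak of 3.47-fold (22 reads) in clone 2 only, at percentile 0.252. With a distance of 2 kb Col4a6 counts in all clones, since the peaks of Col4a5 then fall within reach, and the basement membrane count becomes 2. When a peak has to cover a start base that count is 0.

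Col7a1 and Col17a1 had promoter peaks in clone 2 only. Col7a1, the chain of anchoring fibrils, had 2 promoter peaks in this clone. The one at its outermost start had a fold enrichment of 3.33 on 21 reads. The stronger one, 6.71 on 29 reads, lay at starts 29.1 and 29.3 kb into the gene, of transcripts not annotated as protein-coding. The nearest peak to the outermost start lay 16.3 kb away in clone 1 and 16.5 kb away in clone 3. Col17a1, the transmembrane collagen of hemidesmosomes, had its 4.78-fold peak (20 reads, percentile 2.3) at a start 42.5 kb past its outermost start. The transcript of that start is not annotated as protein-coding. The nearest peak to the outermost start lay 5.73, 5.56 and 5.49 kb away in the 3 clones. Counting starts of protein-coding transcripts alone, or with equal numbers of peaks per clone, Col17a1 has no promoter peak. Itgb4, which encodes an integrin chain of hemidesmosomes, had none in any clone. Of the other transmembrane genes Col23a1 had 8.01-fold on 43 reads at its outermost start in clone 2. Its body peak shared by all clones, of 32.9, 72.6 and 16.8-fold, sits 295 kb from its start at the 3′ end and lies at a start of the adjoining gene Phykpl. Col8a2, a network chain, had 5.88-fold (24 reads) in clone 1 and 9.96-fold (43 reads) in clone 2 at a start 13.7 kb into the gene, with no peak at its outermost start.

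A wider view is the number of bases under peaks within 50 kb on each side of the outermost start. The median collagen gene had 811.5, 1532 and 1168 bases in clones 1, 2 and 3, and the median of all genes was 1614, 2339 and 1618. Ranked among all genes the median collagen gene stood at percentile 38.0, 40.5 and 42.9 (mean 40.5 ± 2.44, SD, n = 3). The fibrillar genes had a mean of 45.7 ± 13.2 for their median percentile, the FACIT genes 41.9 ± 4.03, the basement membrane genes 38.8 ± 3.31, the transmembrane genes 33.9 ± 2.80 and the beaded filament genes 22.5 ± 2.20. In 11 collagen genes (25%) no base of the window lay under a peak in any clone, where the share of all genes is 23.1%. They are Col4a3, Col4a4, Col6a4, Col6a5, Col6a6, Col9a1, Col11a1, Col13a1, Col19a1, Col22a1 and Col25a1. They include the lowest members of the fibrillar, basement membrane, FACIT and transmembrane classes.

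At the upper end Col5a1 had 11918, 21858 and 7468 bases in its window, at percentile 97.6, 98.2 and 95.4, and no other protein-coding start lies in that window. Of these bases 59.6%, 83.1% and 57.8% were in peaks away from every start of a protein-coding gene. Col16a1 had 8591, 19247 and 4559 bases, at percentile 93.1, 97.2 and 83.6. Col8a2 stood at percentile 97.4, 96.4 and 97.5, but 87.2%, 49.0% and 73.6% of its bases were peaks at starts of other genes. Col11a2 stood at percentile 82.3, 87.0 and 79.5, and 100% of its bases in every clone were of that kind. Col17a1, the highest of the transmembrane genes, stood at percentile 77.3, 71.9 and 86.3, with 57.8%, 37.9% and 41.8% of its bases at starts of other genes. The windows of these last 3 genes thus describe their neighbours as much as the collagen gene.

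Among the 10 genes with the highest windows, Col1a1, Col1a2 and Col6a2 had the largest SD of this percentile over the clones, 22.9, 22 and 19.2. Col6a2 had 18100, 8526 and 2348 bases, at percentile 99.5, 84.1 and 61.4. Its domain ranked 32 in clone 1 and 677 in clone 2, with 12 peaks in each, and 15271 in clone 3, with 1 peak. Col6a1 had 8308, 9154 and 3355 bases, at percentile 92.5, 85.5 and 73.3. Col1a1 had 8087, 10052 and 1629 bases, at percentile 92.1, 87.3 and 50.2, so that clone 3 was near the median of all genes. Col1a2 had 8244, 2204 and 3373 bases, at percentile 92.4, 48.6 and 73.6. Col12a1 had 4847, 3980 and 1727 bases, at percentile 80.6, 64.8 and 51.9. Outside the highest 10, Col3a1 had 372, 266 and 4557 bases, at percentile 32.2, 25.5 and 83.6, which follows its promoter. Of the remaining members with a promoter peak in some clones, Col4a1 and Col4a2 stood at 35, 61.1 and 41.0, Col4a6 at 39.7, 40.5 and 65.2, Col5a2 at 37.5, 12.4 and 59.0, and Col7a1 at 52.4, 69.9 and 35.7. Col23a1 stood at 57.4, 49.2 and 54.5, Col24a1 at 45.7, 30.2 and 55.2, and Col27a1 at 15.1, 29.0 and 14.7.

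**Figure D3:**
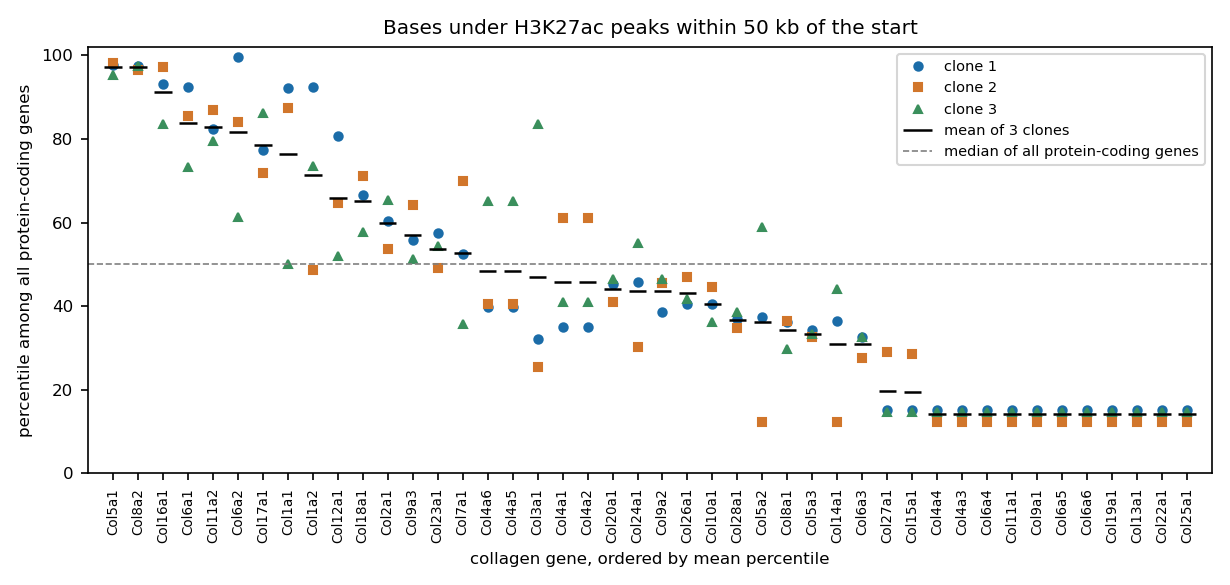
Percentile of each collagen gene among all protein-coding genes by bases under peaks within 50 kb of its start, per clone (points) and as the mean of 3 clones (bars), with genes ordered by the mean. Col5a1 and Col8a2 stand highest at a mean of 97.1, and 11 genes at the right have no base under peaks in any clone.

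Body peaks were found in all 3 clones in 20 collagen genes (45.5%), close to the 48.3% of all genes. A body peak is any overlap, and the median collagen gene is 114 kb long against 17.4 kb for all genes. The 2 shares are therefore not matched for length. The median share of the gene under peaks was 0.174%, 0.692% and 0.215% in collagen genes and 0.476%, 1.59% and 0.334% in all genes. Requiring a −log10 q of at least 5 leaves 9 collagen genes with a body peak in all clones. The share of all genes under that cut was not computed. The collagen genes held 62, 138 and 57 body peaks in clones 1, 2 and 3. Of these 41.9%, 15.9% and 43.9% were overlapped in both other clones, whereas 65.7%, 36.3% and 70.4% of all body peaks were. In no other clone were 21%, 68.1% and 31.6% of the collagen body peaks found, against 8.95%, 51.2% and 14.3% of all. The mean share overlapped in both others was 33.9 ± 15.6% (SD, n = 3), and it becomes 20.5% when the summits have to lie within 250 bp of each other. Without clone 2 the share was 57.2%, but a peak then needs overlap in only 1 other clone, which is a looser criterion. The share was below that of body peaks at large in each of the 3 lists. These sets were not matched for peaks at starts. Of the collagen body peaks 40, 103 and 44 lay away from starts in clones 1, 2 and 3. The share without peaks at starts was computed for collagen genes only. Among promoter peaks alone, the share overlapped in another clone was lower for collagen genes than for all genes in every pair of clones. The gap was smallest for clone 3 peaks in clone 1, at 92.3% of 13 against 93.6%. It was largest for clone 2 peaks in clone 3, at 28.6% of 35 against 63.9%. The part of the proportion of promoter peaks in the lower sharing of body peaks was not tested.

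When the peaks of the 3 lists were merged, 22 regions that touch a collagen gene held peaks of all clones. Of these 11 reached a promoter of the gene itself, 1 was the Phykpl promoter and 10 lay inside 8 genes away from every protein-coding start. The 10 are 2 in Col5a1, 2 in Col15a1 and 1 each in Col4a1, Col4a2, Col4a6, Col5a3, Col18a1 and Col22a1. The strongest lay 102 kb from the start of Col15a1, which encodes type XV collagen of basement membrane zones and has no promoter peak, and its summits are shown in the plot of peaks along genes. Its fold enrichment was 18.5, 42.8 and 14.5 on 85, 240 and 116 reads. A second region of that gene, 86.2 kb from its start, had 11.3, 41.0 and 10.2-fold. In Col22a1, whose product is found at tissue junctions, the region 144 kb from the start had 15.6, 19.4 and 4.27-fold on 108, 90 and 66 reads and was its only peak common to the clones. In Col4a2 the region near 69.5 kb had 6.03, 27.8 and 5.18-fold, and in Col5a1 that at 30.3 kb had 5.80, 21.5 and 3.72-fold. Whether any of these regions acts on the gene that holds it was not tested.

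Sequences of 201 bases around the middle one of the 3 summits are shown for 3 of these regions, whose summits lie within 30, 106 and 63 bases in Col5a1, Col15a1 and Col22a1. They were read from GRCm38.p6 on the gene's strand at chr2:27916666-27916866 (plus, intron), chr4:47310457-47310657 (plus, overlaps a coding exon) and chr15:71890482-71890682 (minus, overlaps a coding exon). Capitals mark the stretch between the outer summits of the clones.
Col5a1 region: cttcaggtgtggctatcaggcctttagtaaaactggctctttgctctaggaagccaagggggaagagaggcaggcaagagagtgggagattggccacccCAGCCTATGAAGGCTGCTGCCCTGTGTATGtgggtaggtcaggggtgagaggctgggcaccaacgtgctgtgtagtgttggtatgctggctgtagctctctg
Col15a1 region: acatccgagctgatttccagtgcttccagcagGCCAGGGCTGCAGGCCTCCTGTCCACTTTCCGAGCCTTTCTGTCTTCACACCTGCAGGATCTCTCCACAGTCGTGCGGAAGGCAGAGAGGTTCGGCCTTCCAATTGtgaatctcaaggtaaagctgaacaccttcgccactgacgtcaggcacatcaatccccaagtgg
Col22a1 region: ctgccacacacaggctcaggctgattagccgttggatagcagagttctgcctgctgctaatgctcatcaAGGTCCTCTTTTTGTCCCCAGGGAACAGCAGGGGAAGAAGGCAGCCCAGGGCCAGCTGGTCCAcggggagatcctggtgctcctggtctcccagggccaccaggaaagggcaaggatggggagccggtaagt

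Known motifs were searched within 150 bases of the summits of collagen body peaks away from starts, on both strands. TGACTCA, the site of AP-1 factors, was present at 3 of 40, 5 of 103 and 3 of 44 such peaks in clones 1, 2 and 3, which is 7.5%, 4.85% and 6.82%. Over all peaks away from starts it was present at 6.07%, 8.7% and 7.29%. GGAATG, the site of TEAD factors, was present at 20%, 16.5% and 22.7% of the collagen peaks and at 17%, 16.5% and 17.3% of all. TGTGGTT, the site of RUNX factors, was present at 2.5%, 4.85% and 4.55%, against 7.16%, 6.28% and 7.67%. RUNX sites were on 1, 5 and 2 collagen peaks, so these shares rest on few peaks and were not tested.

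**Figure D4:**
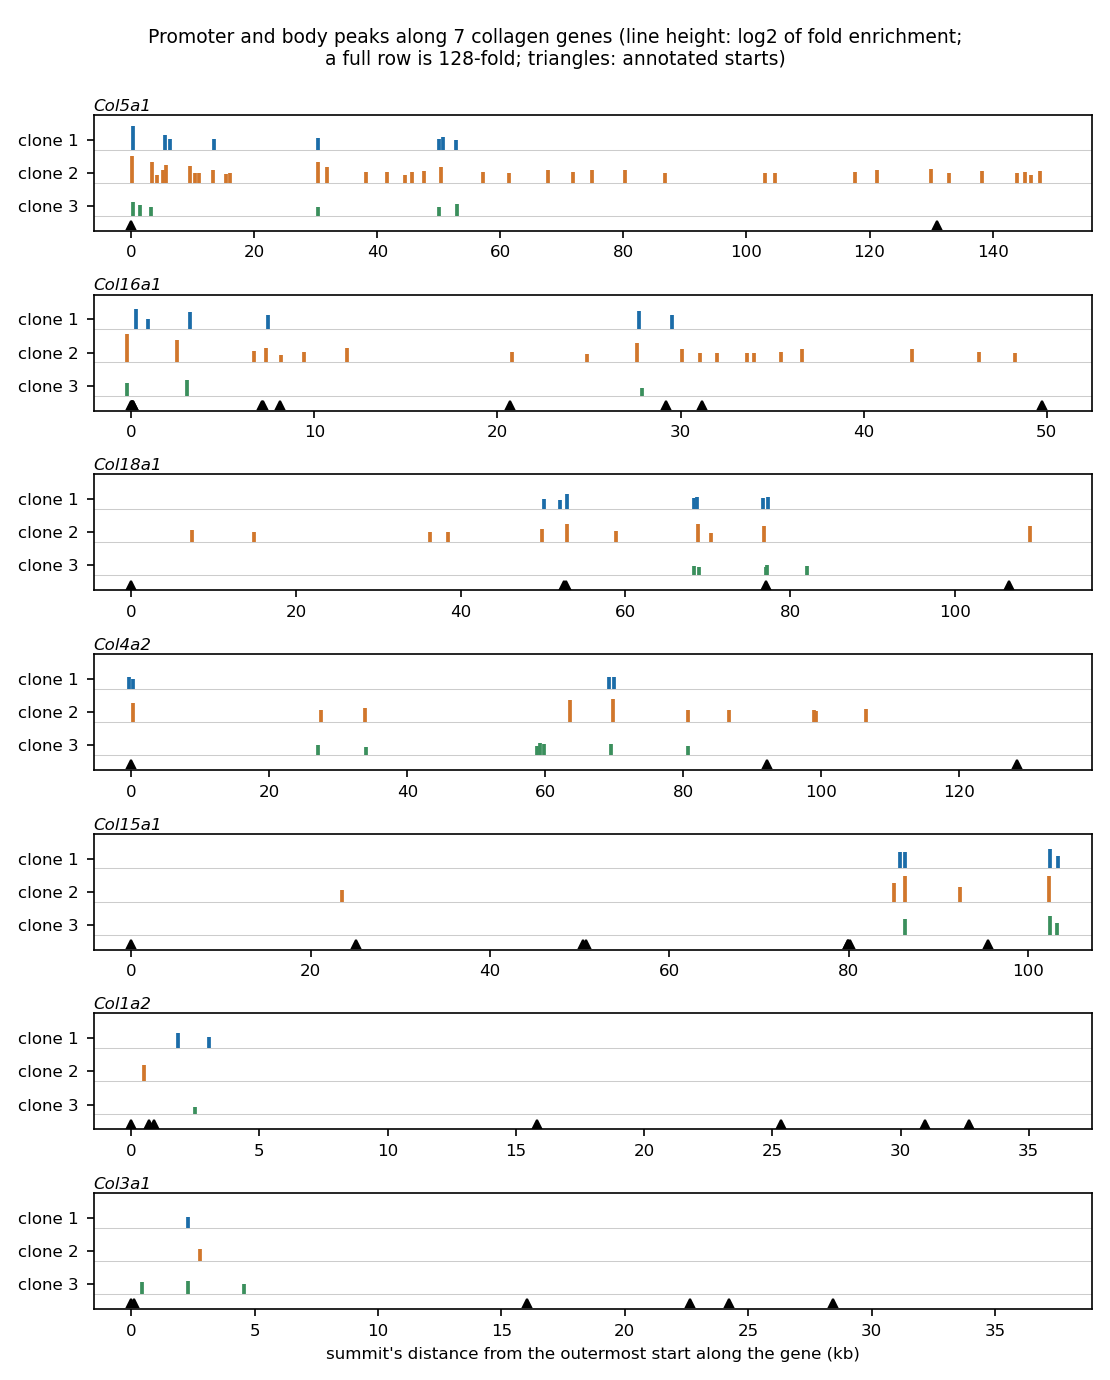
Promoter and body peaks along 7 collagen genes, drawn at the distance of the summit from the outermost start (x axis, in kb) with 1 row per clone. Line height is the log2 of the fold enrichment and triangles are annotated starts. Col5a1 has 37 body peaks in clone 2, and the summits in Col15a1 cluster far from its start. Col3a1 has a promoter peak in clone 3 only, whereas body peaks slightly further in are drawn for all clones.

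Genes that make, process and bind collagen were counted in the same way. Of 20 genes of chain folding and modification 15 (75%) had a promoter peak in all 3 clones, against 46.5% of all genes. Among the 15 are P3h4 and Fkbp10 on chromosome 11, with the same fold enrichment (24.8, 64.9 and 5.68) and the same window percentiles. Their peak therefore appears to be shared and to count for both genes, as shared peaks also do among all genes. The highest by bases within 50 kb were P4hb, a subunit of prolyl 4-hydroxylase, with a mean percentile of 95.7, Serpinh1, the collagen chaperone HSP47, with 93.8, and Colgalt1, a galactosyltransferase of collagen, with 92.3. Colgalt2 had no promoter peak, P3h2 and P4ha3 had one in clones 2 and 3, and P3h3 and Fkbp14 in clones 1 and 2. Of 13 genes of propeptide processing and cross-linking 7 (53.8%) had one in all clones, near the share of all genes, with Loxl3 (97.2), Loxl1 (94.6) and Pcolce (93.5) the highest. Loxl2, Tll2 and Adamts3 had none, Loxl4 had one in clones 1 and 2, Pcolce2 in clones 2 and 3 and Tll1 in clone 2. Of 10 receptors of collagen 5 (50%) had one in all clones, also near that share, with Ddr1 (80.8), Itga10 (76.1) and Mrc2 (70.3) the highest by window, although Itga10 itself had no promoter peak. The receptor genes Itga2, Itga11, Lair1 and Gp6 had none either.

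The marker lists hold other genes with few promoter peaks. Of the keratinocyte genes Itgb4 (98.3), Sfn (93.7) and Cdh1 (82.8) had the highest windows, yet Itgb4 and Cdh1 had no promoter peak and Sfn had one in clone 2 only. For the genes of these lists and of the lists above, the share of the window at starts of other genes was not computed. Their windows can therefore describe neighbours. Epcam and Dsg3 had none, and Krt15 had one in clone 2. Of the fibroblast and mesenchyme genes Sparc (97.1), Vim (92.0) and Twist2 (88.6) were highest. Among chondrocyte genes 0 of 5 had a promoter peak in all clones, Matn3 (78.0) and Comp (58.9) had one in clone 2, and Hapln1, Matn1 and Acan had no base under a peak within 50 kb in any clone. Of the melanocyte genes 1 of 5 had one in all clones, with Pmel (84.2), Mlana (35.4) and Dct (34.1) highest. Of the leukocyte genes Cd68 had one in clones 1 and 2, and of the endothelial genes Tek had one in clone 3.

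**Figure D5:**
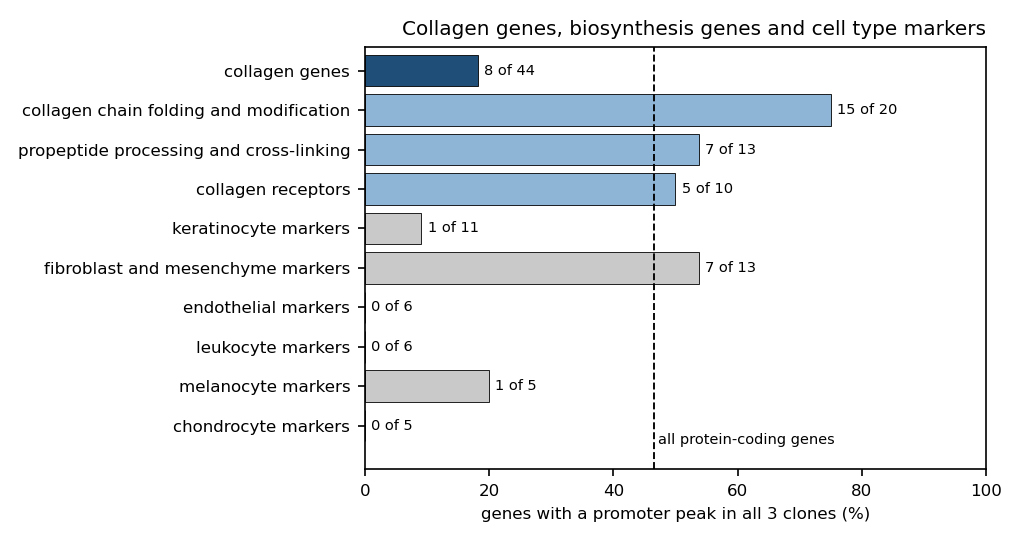
Share of genes with a promoter peak in all 3 clones (x axis, in %) for the collagen genes, 3 lists of collagen biosynthesis genes and receptors, and 6 lists of cell type markers, with counts beside the bars. The dashed line is the share of all protein-coding genes, 46.5%, and collagen genes stand at 18.2%, below each of the 3 lists of biosynthesis genes and receptors.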

How the data were processed

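H3K27-Ac and IgG ChIP-seq libraries were sequenced as single-end reads of tumour cell clones. The authors mapped reads to GRCm38 with bowtie2, and peaks were called per clone with MACS2 2.1.1 per the submitters' processing notes. Peak names carry the word WASPchecked in clones 1 and 2 and merged in clone 3, so the handling of reads may have differed. As deposited, fold enrichment is a ratio, the pileup over local background where a peak is highest. Its p-value and q-value were deposited on a −log10 scale. The deposited positions are starts, ends and summit offsets, and the deposited integer score was not used.

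From these lists peaks were joined to genes and starts of GENCODE M21 with Python 3.11.15, pandas 2.3.3 and NumPy 2.4.6, sequences were read with pysam 0.24.0, and SciPy 1.17.1 and matplotlib 3.10.9 gave the intervals and plots. Coordinates count from 1. Peaks on other sequences (5, 21 and 3) were left out. Reads and background were solved from fold enrichment and p, and the solution was tested on simulated data. Percentiles are mid-ranks within a list. Promoter sequences are from RefSeq on GRCm38.p6, 250 bases before to 50 after a start, taking the start nearest the outermost GENCODE start. Named in full are members with a promoter peak in any clone, the 10 highest by window and the extremes of 4 classes, and of lists those lacking a promoter peak in some clone and the 3 highest. The members, classes and gene lists were chosen with earlier results of these data known. Nothing in the labels pairs the clone numbers with the study's cell line names. No test was made, since there is 1 condition, and 3 clones limit the precision of each mean. Alternatives were other distances and starts, a −log10 q of at least 5, equal numbers of peaks, other windows and leaving out each clone.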

Additional observations from a re-analysis of the deposited data

How the results depend on the processing

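Of 105 alternative values 19 moved and 86 moved less. The limit was 1 SD between clones for the median bases, the median percentile and the share of body peaks. For counts of genes, including the mean count over clones, it was 1.5 times. Among the 86 is the share of body peaks overlapped in both other clones with summits within 250 bp, which at 20.5% lies within 1 SD of the 33.9% given but changed by more than 1.5 times. A peak that has to cover a start base gave 5 collagen genes marked in all clones, a mean of 9.33 per clone and 0 basement membrane genes. A distance of 2 kb gave 2 fibrillar and 2 basement membrane genes. A −log10 q of at least 5 gave 3 genes marked in all clones, 9 with a body peak in all clones and 1 FACIT gene. Shares of all genes with such peaks were computed at the main settings only. The same number of peaks per clone gave 4 genes marked in a single clone, which here follows from fewer peaks of clone 2. The median bases were 1906 for the gene body plus 50 kb, 538.7 for 25 kb on each side and 2621 for 100 kb, as the width of the window sets. The median percentile was 43.8 for the gene body plus 50 kb. Leaving out each clone in turn gave 8 to 13 genes in all clones, 6 to 13 in a single clone, 1 to 3 fibrillar and 1 to 3 basement membrane genes, and 37.3% to 57.2% of body peaks shared. With a clone left out, presence in the 2 remaining clones is enough. That criterion is looser, so the counts in all clones cannot fall and the shares are not like for like. Other causes were not tested. No paired analysis was possible because the clones form 1 group and no test was made. Sites under the peak caller's threshold are missing from a list, and the weakest peaks of clone 3 rest on more reads than those of clones 1 and 2, so absence in a clone is absence from its list.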
